A study of Homo sapiens with 4 samples.

Results

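The genes that add, maintain, and remove DNA methylation were followed in 2 cell lines of AT/RT-MYC that were untreated or had regrown from chemotherapy. They were taken as a named list and not by a rule on their values, but earlier results of these data were known. The list holds the DNA methyltransferases *DNMT1*, *DNMT3A*, and *DNMT3B*, the UHRF proteins *UHRF1* and *UHRF2*, and the dioxygenases *TET1*, *TET2*, and *TET3*. All 8 of these genes were among the 18449 gene symbols of the count table and among the 18066 genes with a total above 0 that were tested. BT-16 and CHLA-266 are established lines of atypical teratoid/rhabdoid tumor (AT/RT), a brain tumor of early childhood that has lost the SWI/SNF subunit *SMARCB1* in most cases, and both were assigned to the MYC subgroup. The untreated group held 1 library of BT-16 and 1 of CHLA-266. The treated group held 1 library of each line after 1 µM doxorubicin (doxo), 5 µM etoposide (eto), and 1 µM vincristine (vin), given 24 h apart, after which resistant cells had grown again at about 35 days. Doxo and eto act on topoisomerase II and vin acts on microtubules, and the 3 drugs were always combined, so no value belongs to a single drug. The methods of the study describe the treated cells as resistant cells that grew again, and give no rate of division at harvest. Each line is 1 culture per condition. In the main test of treatment, p values thus rest on the spread between the 2 cell lines within a condition. They do not measure a spread between replicate cultures.

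In dividing cells, DNA methylation at CpG sites is copied onto the new strand behind the replication fork. UHRF1 binds hemimethylated DNA and recruits DNMT1, the maintenance methyltransferase, whereas DNMT3A and DNMT3B methylate sites that carried no mark before. The TET enzymes oxidize 5-methylcytosine, which starts its removal, and need 2-oxoglutarate and iron to do so.

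BT-16 gave a total count of 75087193 before and 51489712 after treatment, and CHLA-266 gave 66192504 and 49849257. The treated libraries were thus the smaller ones, but held more detected genes (16079 before and 17815 after treatment for BT-16, 15464 and 17114 for CHLA-266). Of 381 olfactory receptor genes, which such cells should not use, 294 and 209 had counts in the treated libraries against 121 and 90 in the untreated libraries. Markers of other cell types (blood, endothelium, neurons, and liver; 15 genes) summed to 1501 and 1231 counts before and to 2289 and 1706 counts after treatment, with *SYT1* the highest in each library and 4, 6, 0, and 2 markers at 0, respectively, in untreated BT-16, untreated CHLA-266, treated BT-16, and treated CHLA-266 cells. *SMARCB1* itself had 1394 and 1313 counts before and 981 and 827 counts after treatment, which says nothing about the DNA of the locus. The part of these differences in the results below was not tested.

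For the UHRF genes, whose ratio changed most after treatment, and for *DNMT1*, the partner of UHRF1, the 250 bases before the start of their reference transcript are given from the RefSeq promoter table (GRCh38.p14), 5′ to 3′ on the strand of the gene. Capitals mark a match to the E2F letters TTTCCCGC, TTTCGCGC, TTTGCCGC, or TTTGGCGC on either strand. E2F factors drive genes of the G1/S transition.
UHRF1 chr19:4909251-4909500 (plus strand): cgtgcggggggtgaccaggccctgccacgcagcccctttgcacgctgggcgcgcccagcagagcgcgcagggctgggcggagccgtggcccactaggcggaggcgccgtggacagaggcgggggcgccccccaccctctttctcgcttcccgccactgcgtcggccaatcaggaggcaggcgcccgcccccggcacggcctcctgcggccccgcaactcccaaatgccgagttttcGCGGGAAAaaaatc
DNMT1 chr19:10194954-10195203 (minus strand): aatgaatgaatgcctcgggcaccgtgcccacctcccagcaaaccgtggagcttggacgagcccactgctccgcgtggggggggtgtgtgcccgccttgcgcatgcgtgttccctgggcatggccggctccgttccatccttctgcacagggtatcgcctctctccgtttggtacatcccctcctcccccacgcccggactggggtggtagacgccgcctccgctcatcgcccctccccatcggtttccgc
UHRF2 chr9:6412949-6413198 (plus strand): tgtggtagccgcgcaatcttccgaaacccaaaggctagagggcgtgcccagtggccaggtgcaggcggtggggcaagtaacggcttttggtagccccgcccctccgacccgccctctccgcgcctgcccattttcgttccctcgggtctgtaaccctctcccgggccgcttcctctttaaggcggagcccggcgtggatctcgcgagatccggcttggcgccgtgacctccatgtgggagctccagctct

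The capitals in the *UHRF1* window read GCGGGAAA, the other strand of TTTCCCGC, and lie at bases -14 to -7 from the start. Such a match was found in 979 of 35116 promoter windows (2.79%). Windows at the MANE Select start, the start of the reference transcript shared by RefSeq and Ensembl, were given for 7 of the 8 genes, and 1 of these 7 held a match. The CHR letters TTTGAA or TTCGAA, which occur in promoters of mitotic genes and were found in 14.3% of all windows on either strand, were in 0 of the 7. The shares over all windows also cover starts other than the MANE Select start. At such starts, a *TET2* window held CHR letters and a *UHRF1* window held TTTCGCGC. A match is only a description of letters, and a window without one says nothing about binding. CpG sites, the substrate of these enzymes, numbered 28 in the window of *UHRF1*, 21 in that of *DNMT1*, and 23 in that of *UHRF2*, against a median of 11 over all windows. In the windows at their MANE Select starts, *TET3* had 37, *TET2* 34, *DNMT3A* 33, and *TET1* 9 CpG sites.

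All 8 genes were downregulated after treatment, from 14.0-fold lower (*UHRF1*) to 1.53-fold lower (*TET3*), and in each of them both treated libraries lay below both untreated libraries. The maintenance pair *UHRF1* and *DNMT1* and the de novo enzyme *DNMT3B* lost most of their RNA, while *UHRF2*, *DNMT3A*, and the TET genes kept 54.0% to 65.2% of theirs. Of all genes tested, 19.1% were called downregulated by the same edgeR quasi-likelihood test (Benjamini-Hochberg adjusted p value under 0.05), and 32.3% had both treated libraries below both untreated libraries. Among the 12620 genes that had 10 or more counts in all 4 libraries, 20.2% were downregulated in a fit of these genes alone and 45.5% had both treated libraries below both untreated libraries. The median log2 fold change was -0.87 over the 8 genes and 0.24 over all 18066 genes. It was -0.18 over the 12620 genes, to which all 8 genes belong. Levels are given as CPM after TMM normalization, in the order untreated and treated and with BT-16 first. For these levels, counts are scaled by the library total multiplied by the TMM factor of that library, and not by the total alone. In bulk RNA, fewer cells that express a gene and less RNA per cell cannot be told apart.

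**Figure D1:**
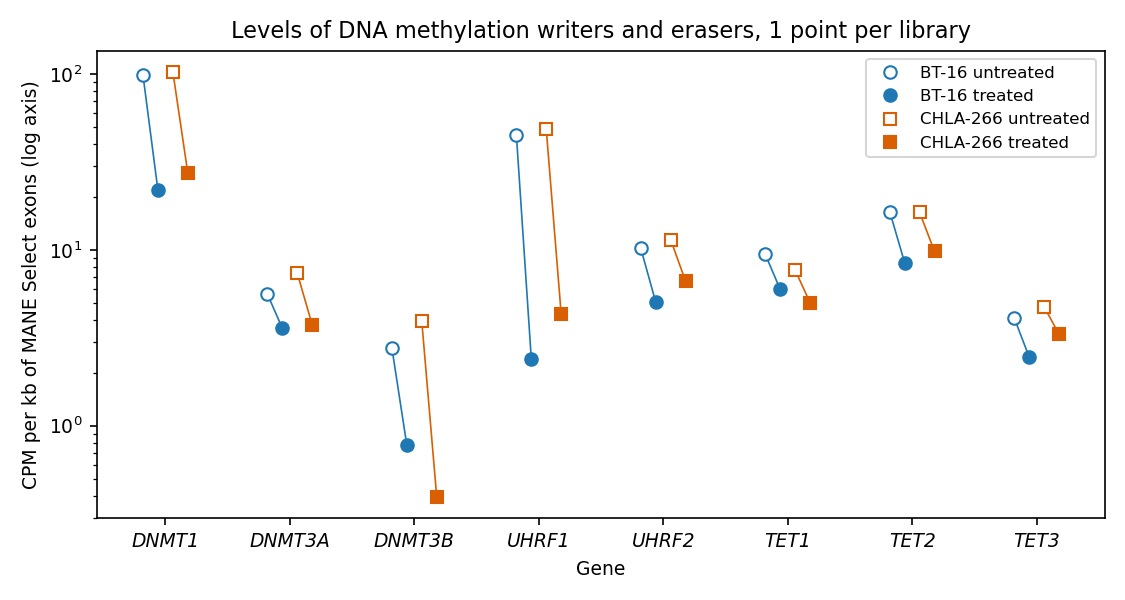
Level of each DNA methylation writer and eraser as CPM per kilobase of MANE Select exons on a log axis, with 1 point per library and lines that join the libraries of a cell line (open, untreated; filled, treated). Each filled point lies below both open points of its gene, and *UHRF1* falls farthest, from 45.2 to 2.41 in BT-16 and from 48.8 to 4.32 in CHLA-266.

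*DNMT1* (ENSG00000130816, hg38 chr19:10133342-10231286, minus strand) is the maintenance methyltransferase. It had 35802 counts in BT-16 before treatment and 6644 afterwards, compared with 33356 and 7504 in CHLA-266, or 519 and 115 CPM and 542 and 144 CPM. The treated libraries thus held 24.4% of the untreated level in the fit, with no overlap between the conditions. The log2 fold change was -2.03 ± 0.18 (SE, n = 2 libraries per condition, edgeR adjusted p = 0.000109), and 3.37% of the genes tested had a lower value. *S1PR2*, a receptor gene on the same strand that overlaps the span of *DNMT1*, had 345 counts before and 202 after treatment in BT-16, with 284 and 75 in CHLA-266.

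*UHRF1* (ENSG00000276043, chr19:4903080-4962154, plus strand), which brings DNMT1 to hemimethylated DNA, showed the largest change of the 8 genes. BT-16 had 12154 counts before treatment and 542 afterwards, and CHLA-266 had 11711 and 876, which is 176 and 9.38 CPM and 190 and 16.9 CPM. Before treatment it was the 1255th most abundant gene by CPM. Its log2 fold change was -3.81 ± 0.28 (SE, n = 2 per condition, edgeR adjusted p = 3.23e-05), so that 7.15% of the untreated level was left and 0.996% of the genes tested had a lower value.

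The paralog *UHRF2* (ENSG00000147854, chr9:6413151-6507054, plus strand) shares the domains of UHRF1 but is not known to replace it in maintenance methylation. It had 2516 counts in BT-16 before treatment and 1042 afterwards, compared with 2513 and 1232 in CHLA-266, or 36.5 and 18.02 CPM and 40.8 and 23.7 CPM. The untreated libraries were close to each other, and both lay above both treated libraries. The log2 fold change was -0.89 ± 0.21 (SE, n = 2 per condition, edgeR adjusted p = 0.0115), 13.5% of the genes tested had a lower value, and the adjusted p value was 0.0618 without the untreated CHLA-266 library.

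*DNMT3A* (ENSG00000119772, chr2:25227855-25342590, minus strand), a de novo methyltransferase, had 3631 counts before and 1949 after treatment in BT-16, with 4262 and 1829 in CHLA-266. The levels were 52.6 and 33.7 CPM and 69.2 and 35.2 CPM, so the treated libraries were closer to each other than the untreated libraries. Its log2 fold change was -0.82 ± 0.19 (SE, n = 2 per condition, edgeR adjusted p = 0.0104), and the call was lost without the untreated CHLA-266 library (adjusted p = 0.0828).

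*DNMT3B* (ENSG00000088305, chr20:32762385-32809359, plus strand), the de novo enzyme best known from embryonic and germ cell tissue, was the least abundant of the 8 genes per kb in each library. It had 827 counts in BT-16 before treatment and 194 afterwards, compared with 1049 and 89 in CHLA-266, or 11.99 and 3.36 CPM and 17.0 and 1.71 CPM. The highest untreated and the lowest treated level were both found in CHLA-266. The log2 fold change was -2.51 ± 0.40 (SE, n = 2 per condition, edgeR adjusted p = 0.00220), which had the widest error of the 8 genes. On the variance-stabilized values, which compress low levels, it was -1.55 (limma).

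Among the erasers, *TET2* (ENSG00000168769, chr4:105145875-105279816, plus strand) had the largest log2 fold change. It had 10920 counts before and 4690 after treatment in BT-16, with 9659 and 4884 in CHLA-266, or 158 and 81.1 CPM and 157 and 94.0 CPM. Its log2 fold change was -0.85 ± 0.16 (SE, n = 2 per condition, edgeR adjusted p = 0.00498), and it was the only TET gene that passed the threshold without each single library. The antisense transcript TET2-AS1 lies on the opposite strand of this locus, and whether the counting used the strand is not stated.

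*TET1* (ENSG00000138336, chr10:68560337-68694487, plus strand), whose CXXC domain binds unmethylated CpG, had 6250 counts in BT-16 before treatment and 3315 afterwards, compared with 4544 and 2499 in CHLA-266. The levels were 90.6 and 57.3 CPM and 73.8 and 48.1 CPM, and it was the only one of the 8 genes that was lower in CHLA-266 than in BT-16 in both conditions. The log2 fold change was -0.64 ± 0.18 (SE, n = 2 per condition, edgeR adjusted p = 0.0236). Adjusted p values were 0.134 without the untreated BT-16 library and 0.0831 without the treated CHLA-266 library.

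*TET3* (ENSG00000187605, chr2:73984910-74108176, plus strand), the TET enzyme of the oocyte and of neurons, had 3417 counts before and 1720 after treatment in BT-16, with 3535 and 2078 in CHLA-266, or 49.5 and 29.8 CPM and 57.4 and 39.99 CPM. Its log2 fold change of -0.62 ± 0.20 (SE, n = 2 per condition, edgeR adjusted p = 0.0395) was the smallest of the 8 genes and the least secure. The adjusted p value was 0.0615 without the untreated BT-16 library, 0.180 without the untreated CHLA-266 library, and 0.160 without the treated BT-16 library.

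The size of the changes depended on the scaling, since the median of all genes moved from 0.24 with TMM to 0.59 with upper-quartile normalization. With the latter, *DNMT1*, *DNMT3B*, *UHRF1*, and *TET2* passed the threshold (4 of 8 genes, against 10.5% of all genes called downregulated), while *DNMT3A*, *UHRF2*, *TET1*, and *TET3* did not, at adjusted p values of 0.0755, 0.0611, 0.218, and 0.274 (edgeR). All log2 fold changes remained negative under every alternative fit. Relative to the median of all genes with TMM, *UHRF1* was lower by a log2 difference of -4.04 and *TET3* by -0.86. Relative to the median of the 12620 genes with 10 or more counts, these differences were -3.63 and -0.44. With an absolute log2 fold change of at least 1 as an additional criterion, *UHRF1*, *DNMT3B*, and *DNMT1* remained, against 9.53% of all genes.

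**Figure D2:**
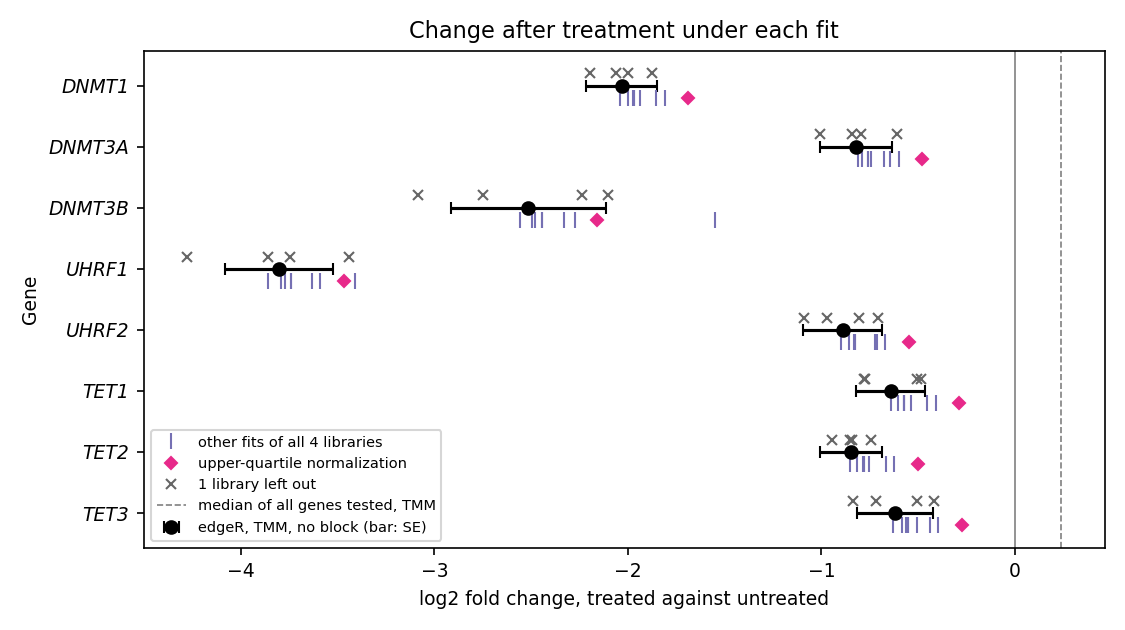
Log2 fold change after treatment of each gene in edgeR with TMM (black, bar SE), in other fits of all 4 libraries (purple lines), with upper-quartile normalization (pink diamonds), and with 1 library left out (crosses), beside 0 and the median of all genes tested (dashed line, 0.24). Every mark lies below 0, with *UHRF1* at -3.81, *DNMT3B* at -2.51, and *DNMT1* at -2.03 apart from the other 5 genes between -0.89 and -0.62.

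Within each cell line, the same 3 genes changed most, but their order differed. In BT-16, the log2 ratio of the treated to the untreated library was -4.23 for *UHRF1* (95% counting interval -4.36 to -4.11), -2.17 for *DNMT1* (-2.21 to -2.14), and -1.83 for *DNMT3B* (-2.07 to -1.61). In CHLA-266, it was -3.50 for *UHRF1* (-3.60 to -3.40), -3.31 for *DNMT3B* (-3.64 to -3.00), and -1.91 for *DNMT1* (-1.94 to -1.87). *DNMT3B* thus took the third place in BT-16 and the second in CHLA-266.

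The largest difference between the lines was that of *DNMT3B*, for which CHLA-266 minus BT-16 gave a log2 ratio of -1.47, and the counting intervals did not overlap. They did not overlap with halved counts either, which stand for read pairs that were counted as 2 reads (-2.17 to -1.52 in BT-16 and -3.81 to -2.88 in CHLA-266). For *UHRF1*, the log2 ratio was 0.74 higher in CHLA-266, and *DNMT3A* had ratios of -0.64 in BT-16 and -0.98 in CHLA-266. *TET1*, at -0.66 and -0.62, was nearly equal in both lines, *TET2* had -0.96 and -0.74, *TET3* -0.74 and -0.52, and *UHRF2* -1.02 and -0.78. The intervals cover counting error only. With 1 library per cell line and condition, a difference in response between the cell lines could not be tested.

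**Figure D3:**
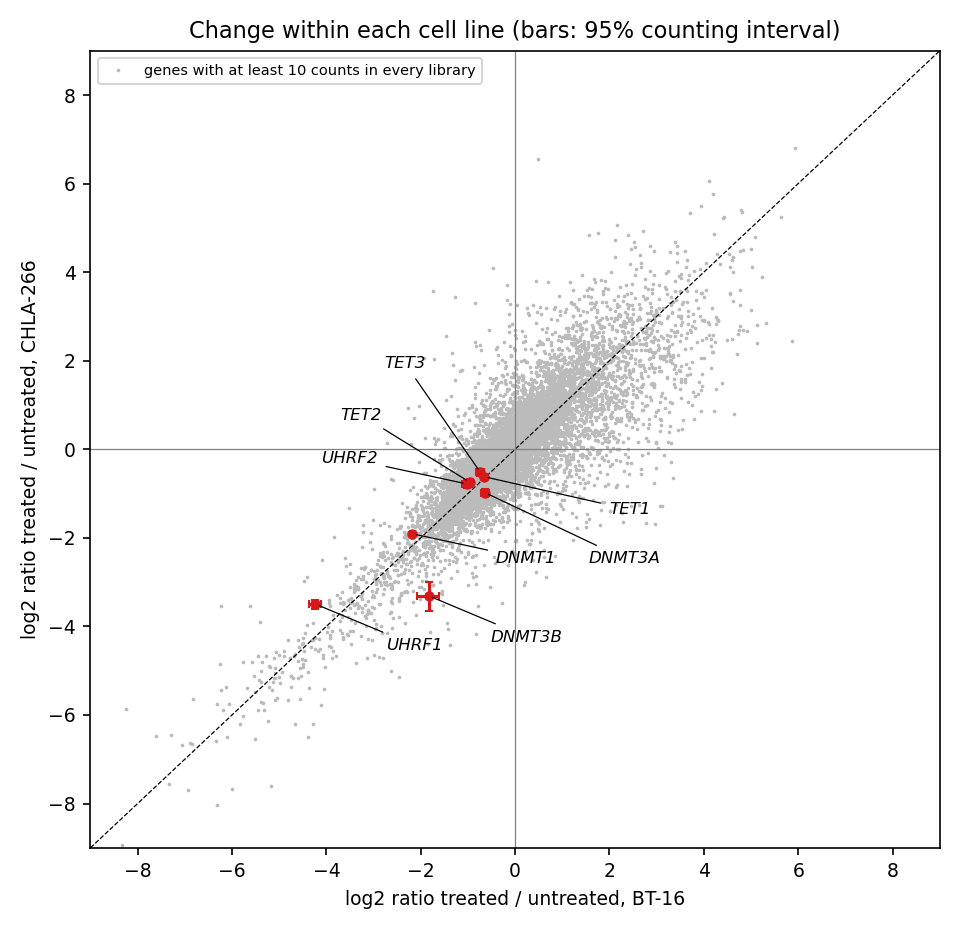
Log2 ratio of the treated to the untreated library in BT-16 (horizontal axis) and CHLA-266 (vertical axis) for 12620 genes that had 10 or more counts in all 4 libraries (grey) and the 8 genes (red, bars 95% counting intervals), with equal ratios on the dashed line. All 8 genes lie in the lower left quadrant, and *DNMT3B* (-1.83, -3.31) lies farthest from the dashed line.

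Independent of treatment, the 8 genes were compared between BT-16 and CHLA-266. The log2 difference (CHLA-266 minus BT-16, condition as a term) ranged from -0.27 ± 0.15 (SE) for *TET1* to 0.46 ± 0.17 for *UHRF1*, with edgeR adjusted p values of 0.600 and 0.203. None of the 8 genes (0) passed the threshold in edgeR or DESeq2, with 1 gene at an unadjusted p value under 0.05 in either tool. In comparison, 2.3% of all genes passed it in edgeR. This does not show equal levels.

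Levels between genes were compared per kilobase of MANE Select exons. In both untreated lines the order was *DNMT1*, *UHRF1*, *TET2*, *UHRF2*, *TET1*, *DNMT3A*, *TET3*, and *DNMT3B*, from 98.4 and 102.7 CPM per kb for *DNMT1* to 2.76 and 3.93 for *DNMT3B* in BT-16 and CHLA-266. After treatment, *DNMT1* still led with 21.8 and 27.4 CPM per kb, followed by *TET2* with 8.46 and 9.80. *UHRF1* dropped from the second to the seventh place in BT-16 (2.41) and to the fifth in CHLA-266 (4.32). The neighbours *UHRF2* and *TET1* were close in untreated BT-16 (10.2 and 9.43) and changed places after treatment (5.04 and 5.97), but not in CHLA-266 (6.63 and 5.00). With the union of all annotated exons as length, *UHRF1* stood slightly above *DNMT1* in untreated cells (34.2 against 33.7 for BT-16, 37.0 against 35.2 for CHLA-266), and *UHRF2* took the seventh place in all 4 libraries, so that it was no neighbour of *TET1* (3.68 against 9.43 in untreated BT-16). *TET2* led *TET1* in untreated BT-16 (9.61 against 9.43) but not in treated BT-16 (4.92 against 5.97). The full order of the genes therefore rests on the choice of length. With either length, *DNMT3B* was last in all libraries and *DNMT1* first in both treated libraries. *DNMT1* and *UHRF1* led both untreated libraries, followed by *TET2*, and *TET2* came after *DNMT1* in treated CHLA-266 cells, also with either length.

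Since a ratio of genes within a library does not depend on the scaling between libraries, the make-up of each family was examined. The UHRF family changed most, with *UHRF1* at 4.43 and 4.28 times the level of *UHRF2* per kb in untreated BT-16 and CHLA-266 cells and at 0.477 and 0.652 times after treatment. Its share of the family went from 81.6% to 32.3% in BT-16 and from 81.0% to 39.5% in CHLA-266. With exon unions, the ratio went from 9.31 to 1.00 in BT-16 and from 8.98 to 1.37 in CHLA-266, so the decrease of the ratio, but not the change of the lead, held for either length.

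Within the methyltransferases, *DNMT1* kept the largest share (92.2% and 90.1% before, 83.4% and 86.9% after treatment), and that of *DNMT3A* went from 5.23% to 13.7% in BT-16 and from 6.45% to 11.9% in CHLA-266. The *DNMT3B* share was 2.59% before and 2.96% after treatment in BT-16, but 3.45% and 1.25% in CHLA-266, so it differed in direction between the lines. The ratio of *DNMT3B* to *DNMT3A* was lower after treatment in both lines, from 0.495 to 0.216 and from 0.535 to 0.106. *UHRF1* was also lower relative to *DNMT1*, its partner, from 0.459 to 0.110 in BT-16 and from 0.475 to 0.158 in CHLA-266. With exon unions, the *DNMT3A* share was larger and went from 9.72% to 23.5% in BT-16 and from 11.8% to 20.9% in CHLA-266.

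The shares within the TET family moved by less than those of the UHRF family. *TET2* held 55.0% before and 50.1% after treatment in BT-16, with 56.8% and 54.1% in CHLA-266. *TET1* held 31.4% and 35.3% in the former and 26.7% and 27.6% in the latter, and *TET3* 13.7% and 14.6% as well as 16.5% and 18.3%. With exon unions, *TET1* held 41.2% and 45.2% in BT-16, beside 42.0% and 37.3% for *TET2*. Together, the DNMT and UHRF genes made up 84.4% of the summed level per kb of all 8 genes in BT-16 before treatment and 66.5% afterwards, with 85.8% and 70.1% for CHLA-266. These shares are a description and were not tested.

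**Figure D4:**
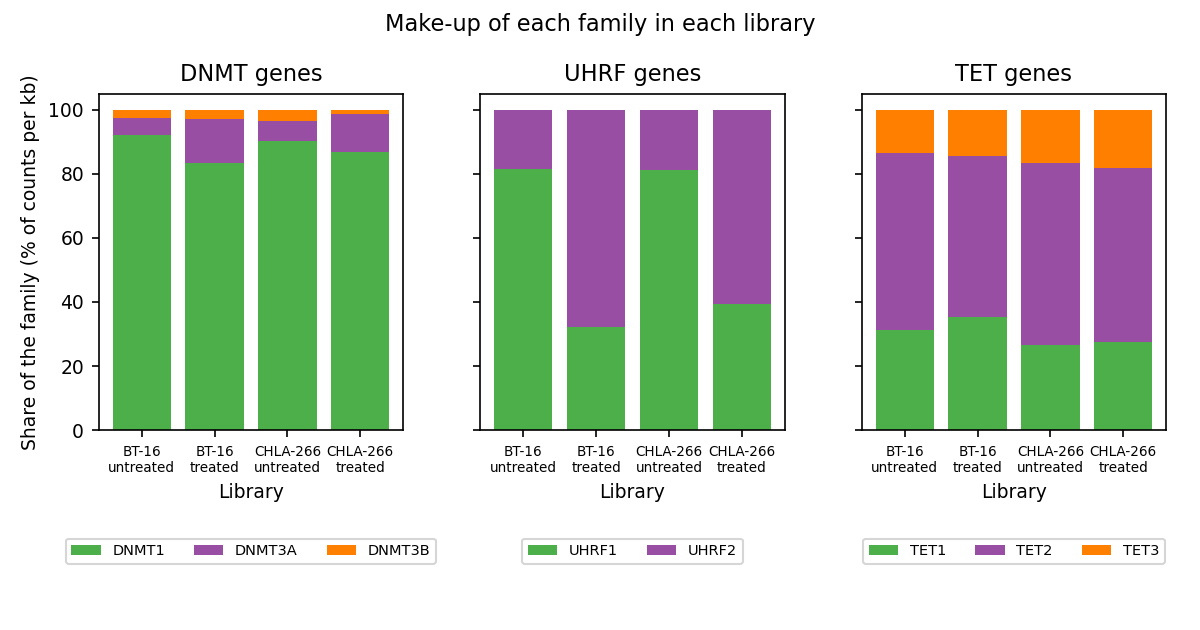
Share of each gene in the summed counts per kb of its family (percent) in each library, for the DNMT, UHRF, and TET genes. *UHRF1* holds 81.6% and 81.0% of its family before and 32.3% and 39.5% after treatment, while *TET2* stays between 50.1% and 56.8%.

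The 3 genes with the most similar pattern to each gene, by the root mean square difference (RMS) of the centred log2 CPM over the 4 libraries, were taken from 10340 genes that had 100 or more counts in all 4 libraries. For *DNMT1* these were *MSH6* (mismatch repair, RMS 0.0204), *IPO5*, and *GPN3*. The nearest gene to *UHRF1* was *CDC45* (replication helicase, RMS 0.174), followed by *H2BC8* and *ANLN*. The RMS was not scaled for the size of a change, so its values do not compare between genes with small and large changes. *G2E3*, *DPYSL5*, and *ARPIN* were nearest to *DNMT3B* (RMS 0.0939 for *G2E3*). For *DNMT3A* they were *MEA1*, *ERGIC2*, and *SLC35G1*, for *UHRF2* *MRPS7*, *YBX1*, and *CYB5A*, for *TET1* *ROMO1*, *NUDT22*, and *PEF1*, for *TET2* *FER*, *ASL*, and *ZNF496*, and for *TET3* *CHD1L*, *ZFP82*, and *NOC3L*. With 4 libraries, many genes share such a pattern.

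To place the 8 genes among the processes they depend on, lists of related genes were counted in the same edgeR test. In it, 16.1% of all genes were upregulated and 19.1% were downregulated. *CDCA7*, *KDM2B*, *MAT2A*, *MCM2*, *TDG*, and *USP7* are outside the rule for named genes and were chosen after their values were seen. Genes of S phase and mitosis, which mark dividing cells, were downregulated in 20 of 20 cases with a median log2 fold change of -3.56, from -6.03 (*MKI67*) to -2.30 (*MCM2*). *MKI67* had 109853 counts in BT-16 before treatment and 1262 afterwards, compared with 96814 and 1386 in CHLA-266. Only *UHRF1* (-3.81) and *DNMT3B* (-2.51) of the 8 genes lay within this range, and the part of cell division in the change of the writers and erasers was not tested.

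Of 16 partners of maintenance and de novo methylation, 8 were downregulated and 1 upregulated (median -0.53). The strongest decreases were those of *PCLAF* (-4.86) and *PCNA* (-2.35) at the replication clamp, the remodeler *HELLS* (-3.43) with its activator *CDCA7* (-2.21), and *LIG1* (-3.29), a replicative ligase whose methylated form binds UHRF1. *HELLS* had 25226 counts before and 2149 after treatment in BT-16, with 25556 and 1845 in CHLA-266. *TRIM28*, a corepressor of repeats and imprinted loci and the partner with the highest total count (not per kb), was downregulated by less (-1.07). The deubiquitinase *USP7*, which binds DNMT1 and UHRF1, had -0.41 (edgeR adjusted p = 0.112). The imprint regulator *ZFP57* was upregulated from 1 and 0 counts to 32 and 48 counts, at least 16.02-fold. With 15.3 and 23.0 counts per kb, it lay above the 95th percentile of olfactory receptor genes in 1 of the treated libraries (26.3 for BT-16, 21.2 for CHLA-266), and the part of this background was not tested.

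Among 13 readers of CpG, 5 were downregulated and the other 8 passed the test in neither direction (median -0.05). The former were *MBD3* (-1.46), *MBD4* (-1.40), and *MBD2* (-1.13), which are named for a methyl-CpG binding domain. The others were *CXXC1* (-0.95) and *KDM2B*, which bind unmethylated CpG. *KDM2A*, the reader with the highest total count, had a log2 fold change of 0.34 (edgeR adjusted p = 0.120).

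Downstream of the TET enzymes, 4 of 14 genes of demethylation and base excision repair were downregulated and 1 was upregulated (median -0.38). The scaffold *XRCC1* (-2.03), *PARP1* (-1.23), the endonuclease *APEX1* (-0.68), and the glycosylase *UNG* (-0.59) decreased. *TDG*, the glycosylase that removes oxidized methylcytosine, had -0.43 (edgeR adjusted p = 0.127). The stress-induced *GADD45A* was upregulated (1.29) with 2200 counts in BT-16 before treatment and 4416 afterwards, compared with 2151 and 4542 in CHLA-266.

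The methyl donor cycle, which supplies the methyl group for DNMT enzymes, had 10 downregulated and 2 upregulated genes of 18 (median -0.999). The folate enzymes *SHMT1* (-3.06), *TYMS* (-2.51), which makes thymidylate, and *MTHFD2* (-1.67) were among those that decreased. *MTHFD1*, the gene with the highest total count, had -0.95. *MAT2A*, which makes S-adenosylmethionine, was also downregulated (-1.05). *AHCYL2* (0.67) was among the upregulated genes.

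Of 14 genes around 2-oxoglutarate, the cosubstrate of the TET enzymes, 9 were downregulated and 1 was upregulated (median -0.81). *IDH2* (-1.79), which makes 2-oxoglutarate in mitochondria, *FH* (-1.66), which removes the TET inhibitor fumarate, and the glucose transporter *SLC2A1* (-1.27) were among those that decreased. *GLUD1*, which makes 2-oxoglutarate from glutamate, was upregulated (0.66). The gene with the highest total count, *IDH1*, had 0.60 (edgeR adjusted p = 0.0646).

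**Figure D5:**
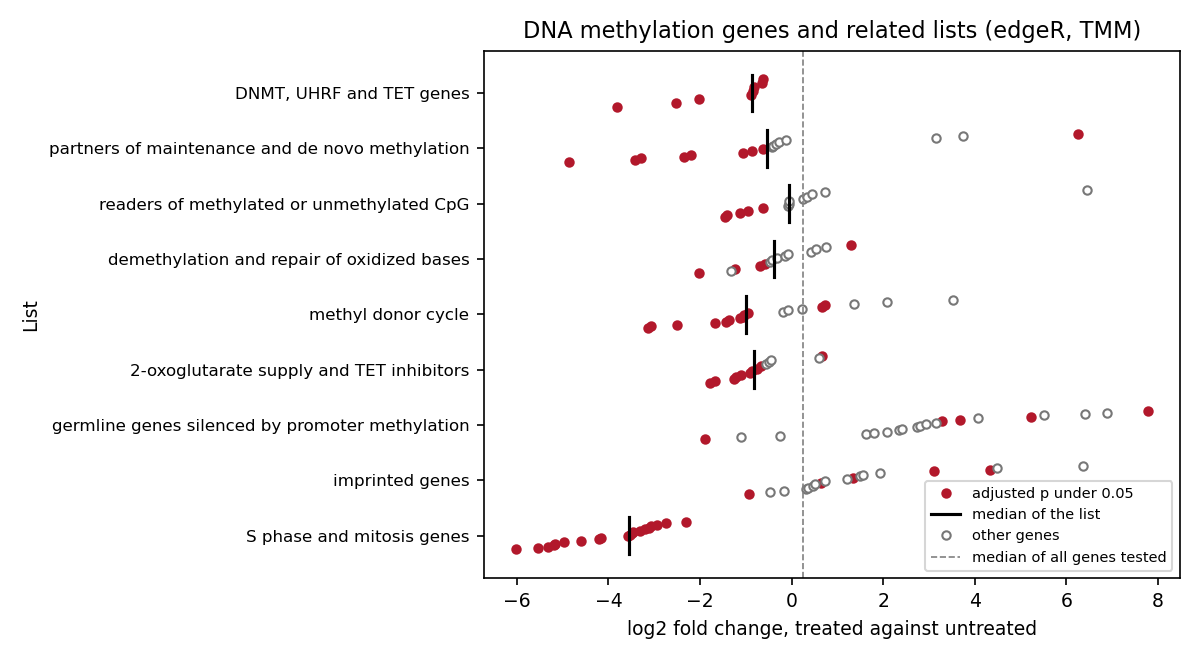
Log2 fold change after treatment of the 8 DNA methylation genes and of the genes of each related list (edgeR, TMM), with filled points for adjusted p values under 0.05, black lines for list medians (not drawn for the germline and imprinted lists, which hold genes near 0 counts), and a dashed line for the median of all genes (0.24). The S phase and mitosis genes lie between -6.03 and -2.30, and the 8 genes between -3.81 and -0.62.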

How the data were processed

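RNA of untreated and treated BT-16 and CHLA-266 cells was sequenced from 10 ng per library with a stranded kit and paired ends. This gave 1 library for each line and condition (4 in all). Groups were taken from the treatment label. The authors made FASTQ files with bcl2fastq 2.20, trimmed reads with Skewer 0.2.2, aligned them to hg38 with STAR, named genes with biomaRt 2.62.0, and left out genes of the sex chromosomes. The estimated counts that the authors deposited were not normalized, and rounding to whole numbers touched 5 values of 2 genes. The log2 values that the authors deposited are variance-stabilized counts from DESeq2 1.46.0. Whether both reads of a pair were counted, and on which strand, is not given in the sources used here. Low counts were mostly even (20.5% to 34.2% odd among counts of 1 to 20), and intervals are too narrow where both reads were counted.

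After 383 of 18449 symbols with no count were dropped, 18066 genes were tested with edgeR 4.0.16 (quasi-likelihood test, TMM, Benjamini-Hochberg adjustment over all genes tested, threshold 0.05) in R 4.3.3, without the cell line as a term. TMM gave factors of 0.919 (untreated) and 1.12 (treated) for BT-16 and of 0.930 and 1.04 for CHLA-266. For 2 against 2 libraries, 0.333 is the smallest two-sided p of an exact permutation test. Same-numbered libraries are paired by the cell line itself, and over 12620 genes (no independent replicates) their deviations from the mean of each condition correlated with 0.257. A block for the cell line lowered the common dispersion from 0.140 to 0.0712. Ratios within a cell line used TMM, 0.5 added counts, and exact Clopper-Pearson 95% intervals (scipy 1.17.1). Positions and MANE Select exon lengths came from GENCODE 44. Folds against libraries at or near 0 were set against a floor of 3 counts per library.

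The alternatives were a block for the cell line, DESeq2 1.42.0 with this block or without it, other normalizations, filters on low counts, limma 3.58.1 on the deposited log2 values, a log2 threshold of 1, and each library left out. Exon unions as length and differences from the median of all genes or of those with 10 or more counts were chosen after seeing the data. The 8 genes and all lists were chosen with earlier results of these data known. Named are all 8 genes, the 3 genes of most similar pattern, *MKI67*, and *SMARCB1*. From each list, up to 4 genes of largest change past the threshold in each direction are named. The gene with the highest count summed over the 4 libraries, not scaled by length, is named as well. The lists were written from general knowledge, and *ZBTB33*, *OGT*, *H19*, *MEG3*, and *ALAS2*, among others of these lists, were not analysed here. Some genes that the rule names are not reported here. The tests were tested on simulated counts.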

Additional observations from a re-analysis of the deposited data

How the results depend on the processing

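Of 104 tests of the 8 genes under alternative fits, 87 passed the threshold in the same direction, 17 did not, and 0 were reversed. With the cell line as a replicate block in edgeR, all 8 genes passed (log2 fold change of *TET3* -0.63), 23.7% of all genes were downregulated, and no call of the 8 genes changed. Upper-quartile normalization gave 1895 downregulated genes, 4 of the 8 among them, with -0.48 for *DNMT3A*, -0.55 for *UHRF2*, -0.29 for *TET1*, and -0.28 for *TET3*, none of which passed. The log2 threshold of 1 gave 1721 genes and 3 of the 8, without *DNMT3A* (-0.82), *UHRF2* (-0.89), *TET1* (-0.64), *TET2* (-0.85), and *TET3* (-0.62). *TET1* and *TET3* also lost their calls with library totals (-0.41 and -0.40) and with at least 10 counts in every library (-0.46 and -0.44), and *TET3* with DESeq2 size factors in edgeR (-0.55) and limma on the variance-stabilized values (-0.51). The scale itself moved in the normalizations, and the cause of the other losses was not tested.

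Leaving out each library gave 5 to 7 of the 8 genes, with log2 fold changes of -1.01 to -0.61 for *DNMT3A*, -1.09 to -0.71 for *UHRF2*, -0.78 to -0.49 for *TET1*, and -0.84 to -0.42 for *TET3*. A lone library of a condition was then assumed to vary like those of the other condition. Over the 8 related lists, the 13 upregulated genes became 21 with DESeq2 without the block, 20 with library totals, and 23 with upper quartiles. Over all genes, the 2910 upregulated genes became 4046, 3678, and 4361 in these fits, so the counts of the lists rose along with those of all genes. Between the cell lines, library totals gave 689 genes against 415. With DESeq2 size factors, library totals, and upper quartiles, the 8 genes had median log2 ratios of -0.89, -0.70, and -0.59 (BT-16) or -0.84, -0.72, and -0.58 (CHLA-266). Depth limited *DNMT3B*, with 89 counts in treated CHLA-266 cells, and the germline genes, most of which had few counts.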

Other observations

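Among 20 germline genes that are known to be silenced by promoter methylation in somatic cells, 4 were upregulated and 1 was downregulated after treatment (edgeR quasi-likelihood test, Benjamini-Hochberg adjusted p value under 0.05), beside 16.1% and 19.1% of all genes. *DAZL*, an RNA-binding protein of germ cells, had 6 and 5 counts in untreated and 105 and 20 counts in treated BT-16 and CHLA-266 cells (log2 fold change 3.68 ± 1.13, SE, adjusted p = 0.0352). *STK31* had 5 and 8 counts before and 48 and 61 counts after treatment (3.29 ± 1.02, adjusted p = 0.0355). The helicase *DDX4* went from 0 and 0 to 24 and 26 counts, at least 9.93-fold higher, and *ASZ1*, of the piRNA pathway, from 0 and 2 to 60 and 15 counts, at least 14.4-fold higher. The meiosis gene *TEX15*, with the highest total count of the list, was downregulated (-1.90 ± 0.23, adjusted p = 0.000523). Olfactory receptor genes also gained counts, and none (0) of the 4 upregulated genes lay above their 95th percentile of counts per kb (26.3 in treated BT-16 and 21.2 in treated CHLA-266 cells) in both treated libraries, while *DAZL* did so in 1. The part of this background in the 4 genes was not tested.

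Of 18 genes listed as imprinted, 4 were upregulated and 1 was downregulated in the same test, beside 16.1% and 19.1% of all genes. *GRB10*, an adaptor that restrains growth signals, had 529 and 578 counts before and 2290 and 5546 counts after treatment in BT-16 and CHLA-266 cells (3.10 ± 0.41, adjusted p = 0.000921). *IGF2R*, the most abundant of the list, which clears IGF2, had 33576 and 37430 counts before and 68800 and 81782 counts after treatment (1.34 ± 0.21, adjusted p = 0.00192). *DLK1* (4.33), with 2 and 6 counts before and 36 and 103 counts after treatment, and *BLCAP* (0.65) were also upregulated, and *NDN* was downregulated (-0.94). With 6.86 and 19.6 counts per kb after treatment, *DLK1* lay above the olfactory 95th percentile in neither treated library. These are levels summed over both alleles, and neither methylation nor allelic expression was measured.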
